A study of Mus musculus with 24 samples.

Results

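The genes described here are 10 genes of sebaceous gland lipid metabolism: Scd3, Elovl3, Far2, Awat1, Awat2, Dgat2, Soat1, Cidea, Mgst1 and Mc5r. They were chosen by symbol, and all 10 were among the 17721 genes of the authors' deposited table. That table compares the daily rhythm of each gene between wild-type (WT) epidermis and epidermis in which Cre recombinase under the keratin 14 promoter had removed Bmal1, the core activator of the circadian clock (EpiKO). The EpiKO animals were 24 male C57BL/6 mice aged 8 weeks, kept on standard chow in equal days and nights of 12 h, with 4 mice at each of 6 times 4 h apart, counted in hours from lights on as zeitgeber time (ZT) 0. The keratin 14 promoter is active in basal keratinocytes and also in the outer root sheath and the basal cells of the sebaceous gland, and in which of these cells Bmal1 was removed was not measured here. No WT library is among the samples used here. The labels describe the same sampling scheme for each genotype and do not say how WT libraries were prepared relative to EpiKO ones. The epidermis was lifted from scraped back skin with dispase and strained to a cell suspension, and the labels do not say how much of each sebaceous gland came with it. In the deposited table, columns for the side other than WT carry a label that does not name the genotype and were read as EpiKO. It gives fitted values per genotype and no value per library, so no spread between mice can be shown, no test across animals could be run, and the depth is unknown.

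Sebaceous glands open into the hair canal and secrete sebum by the bursting of lipid-filled cells, the sebocytes. Mouse sebum is rich in wax diesters, sterol esters and triacylglycerol. Saturated fatty acids are desaturated and lengthened, part of them is reduced to fatty alcohols, and acyltransferases join acids to alcohols, glycerol or cholesterol. Among the 10 genes, Scd3 encodes a desaturase, Elovl3 an elongase of very long chains and Far2 a reductase that makes fatty alcohols. Awat1 and Awat2 encode wax alcohol acyltransferases, Dgat2 the enzyme that adds the last acyl chain of triacylglycerol, and Soat1 the enzyme that esterifies cholesterol. Cidea coats lipid droplets and promotes their fusion, Mgst1 is a membrane-bound glutathione transferase that acts on lipid peroxides, and Mc5r is a melanocortin receptor that stimulates sebum production.

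Sequences of 2 kinds bear on how these genes were measured and on what lies upstream of them. Scd3 lies in a cluster with Scd2, Scd4 and Scd1 on chromosome 19, with gaps of 49.7 kb, 26.2 kb and 47.7 kb in that order (mm10). Its coding sequence of 1077 bases has a run of 185 bases, from coding base 475 to 659, that is identical in Scd1. Over this run, a read of 51 bases fits both genes. The run covers chr19:44235804-44238387 on the plus strand in 2 exon blocks (GENCODE M21, mm10), and is written here as transcript sequence.
Scd3 and Scd1 shared run: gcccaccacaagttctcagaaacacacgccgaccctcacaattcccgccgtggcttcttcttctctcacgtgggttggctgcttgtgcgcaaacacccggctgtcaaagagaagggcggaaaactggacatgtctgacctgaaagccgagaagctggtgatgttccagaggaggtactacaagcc
Identical windows of 51 bases made up 16% of the Scd3 coding windows for Scd1, 12.8% for Scd2 and 6.33% for Scd4. Over all Scd3 transcripts, 6.32% of windows were found in another gene.

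The promoters are shown for 3 acyltransferase genes: Soat1, the one with a rhythm assigned in EpiKO, and Awat1 and Awat2, which lie near each other on chromosome X. Each is 250 bases that end at an annotated transcription start (RefSeq, GRCm38.p6), and capitals mark a CCAAT box on either strand. They lie at chr1:156474329-156474578 (minus strand), chrX:100442718-100442967 (minus strand) and chrX:100571997-100572246 (plus strand).
Soat1 promoter: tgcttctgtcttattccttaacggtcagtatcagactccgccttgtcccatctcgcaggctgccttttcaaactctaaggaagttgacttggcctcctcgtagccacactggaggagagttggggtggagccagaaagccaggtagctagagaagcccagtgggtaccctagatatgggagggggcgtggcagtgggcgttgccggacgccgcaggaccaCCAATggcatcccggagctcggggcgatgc
Awat2 promoter: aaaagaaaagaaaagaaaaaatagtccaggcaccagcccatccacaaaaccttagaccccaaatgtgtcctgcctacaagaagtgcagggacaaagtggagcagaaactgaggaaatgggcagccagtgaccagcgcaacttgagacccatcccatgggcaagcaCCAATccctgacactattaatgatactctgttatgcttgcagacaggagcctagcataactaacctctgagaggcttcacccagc
Awat1 promoter: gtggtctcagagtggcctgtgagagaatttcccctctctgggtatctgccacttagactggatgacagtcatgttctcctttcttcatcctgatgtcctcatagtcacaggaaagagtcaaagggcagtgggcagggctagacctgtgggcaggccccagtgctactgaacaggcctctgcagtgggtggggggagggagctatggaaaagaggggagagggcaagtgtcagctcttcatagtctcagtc
The Soat1 box starts 30 bases before the transcription start and the Awat2 box 85 bases before it. The search covered 8 promoters of 6 of the 10 genes, namely Soat1, Mgst1, Far2, Scd3, Awat2 and Awat1, and 6 motifs on both strands. Promoters of Mc5r, Cidea, Elovl3 and Dgat2 were not searched. The CCAAT box was found in 3 of the 8 promoters, the third being a second start of Awat2 with the box 121 bases upstream, and it occurs in 33.8% of all 32851 promoters of the same length. None of the 8 held the E-box CACGTG, the motif of CLOCK and BMAL1 (6.02% of all promoters), the D-box TTATGNAA (3.07%), the nuclear receptor motif AGGTCA (14%), the direct repeat of that motif bound by PPAR and RXR (0.0335%), or TATAAA (12.4%). Every direct repeat also holds the single motif. These are matches of letters in short windows and say nothing of binding.

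All 10 genes had fitted means of 3.91 or more in both genotypes (log2, the authors' deposited table), over a wide range. The deposited means are log2 values with no stated correction for length, so genes are compared here after subtracting log2 of the exon length in kb. On that scale Dgat2 was highest, with a mean of 9.43 in both genotypes (log2 per kb, from the authors' deposited table), and Mgst1 followed at 8.21 in EpiKO and 7.47 in WT. A middle group held Cidea (6.67 in EpiKO, 6.00 in WT), Scd3 (5.31 and 7.29), Elovl3 (6.65 and 5.65), Far2 (6.49 and 5.25) and Soat1 (5.39 and 6.08) in log2 per kb from the authors' deposited table. The lowest were Awat1 (4.35 and 3.44), Mc5r (4.66 and 2.47) and Awat2 (3.77 and 3.31), again in log2 per kb from the authors' deposited table. The order within the middle group was not the same in both genotypes: Scd3 stood above the other 4 in WT and below them in EpiKO. Without values per animal, which neighbours in this order differ beyond animal variation was not tested.

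Without a length correction, Dgat2 stood above 91.2% of all genes in EpiKO and 90.8% in WT, and Awat1 above 35.2% and 26.8%, by their means in the authors' deposited table. Of 16 other genes that mark sebocytes, 2 in EpiKO and 1 in WT had means under 1. Plin5 was at -0.09 in both genotypes and Mc1r at 0.86 in EpiKO (log2, the authors' deposited table). The rest lay higher. Scd1, the main desaturase of skin, was fitted with a shared mean of 13.36 for both genotypes (log2, the authors' deposited table). Krt79, a keratin of the upper hair follicle and the sebaceous duct, had a shared mean of 13.62 (log2, the authors' deposited table). Pparg, the nuclear receptor that drives sebocyte differentiation, was at 5.56 in EpiKO and 4.87 in WT (log2, the authors' deposited table). Several of the 10 genes are also used by fat cells. Of 10 fat cell markers, 6 in EpiKO and 5 in WT lay under 1, with Adipoq at -2.21, Plin1 at -1.65 and Lep at -0.78 in both genotypes (log2, the authors' deposited table). Others of the list were well above that: Lpl, a lipase also made outside fat, was at 8.03 in EpiKO and 10.27 in WT, and Adrb3 at 6.91 and 7.51 (log2, the authors' deposited table).

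**Figure D1:**
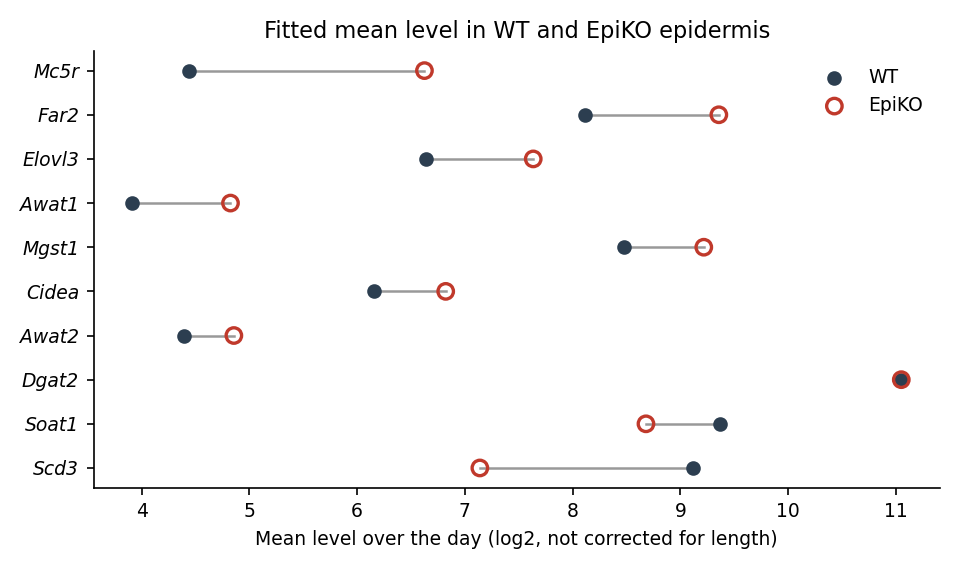
Fitted mean level over the day of each gene in WT (filled) and EpiKO (open), in log2 without a correction for length, so positions compare genotypes within a gene. Mc5r has the widest gap with EpiKO higher (6.63 against 4.44), Scd3 the widest with EpiKO lower (7.14 against 9.12), and both Dgat2 points lie at 11.05.

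Bmal1 itself (symbol Arntl) was assigned a rhythm in WT only at weight 0.882, with means of 9.65 for EpiKO and 9.50 for WT (log2, the authors' deposited table). Those levels cover the whole gene, so they do not check the deletion. The first comparison asks whether the daily rhythm of these genes differed between genotypes. Most of them were assigned no daily rhythm in either. The authors' fit weighs 5 models per gene (no rhythm, rhythm in EpiKO only, in WT only, the same in both, or different in both), and a gene was assigned where 1 model had a weight of at least 0.5. By the weights in the authors' deposited table, 8 of the 10 genes were assigned no rhythm, beside 56.7% of all genes and 43.1% of the 12107 genes at or above the mean level of the lowest of the 10. Soat1 alone was assigned a rhythm in EpiKO only (4.31% of all genes, 5.33% of those at that level), and Mc5r alone had different rhythms (2.65% and 3.81%). None of the 10 was rhythmic in WT only (8.41% and 11.2%) or had the same rhythm in both genotypes (16.7% and 22.7%), by the authors' deposited table. With a limit of 0.8 in place of 0.5, 2 genes (Cidea and Awat1) stayed in the class without rhythm and the other 8, Soat1 and Mc5r among them, had no class.

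The 8 genes without an assigned rhythm range from desaturation and elongation to wax synthesis and lipid storage. Cidea had the largest weight for no rhythm, 0.844, followed by Awat1 at 0.816, Scd3 at 0.768, Far2 and Mgst1 both at 0.753, Elovl3 at 0.736, Dgat2 at 0.707 and Awat2 at 0.610 in the authors' deposited table. The median of this weight was 0.744 over the 10 genes, 0.628 over all genes and 0.359 over the 12107 genes. Summed over the 3 models with a WT rhythm, the weight ran from 0.102 (Cidea) to 0.272 (Dgat2) among the 8, and summed over the 3 with an EpiKO rhythm from 0.0681 (Awat1) to 0.334 (Awat2), per the authors' deposited table. None of the 8 had a summed rhythm weight of at least 0.5 in either genotype. The wax alcohol acyltransferase Awat2 came nearest, at weight 0.256 for a rhythm in EpiKO only, and the triacylglycerol enzyme Dgat2 had 0.189 for WT only in the authors' deposited table. Over all 10 genes, a WT rhythm had a summed weight of at least 0.5 in 1 gene and an EpiKO rhythm in 2. The shares were 34.5% and 29.2% of all genes and 46% and 38.9% of the 12107, which are not matched in level.

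**Figure D2:**
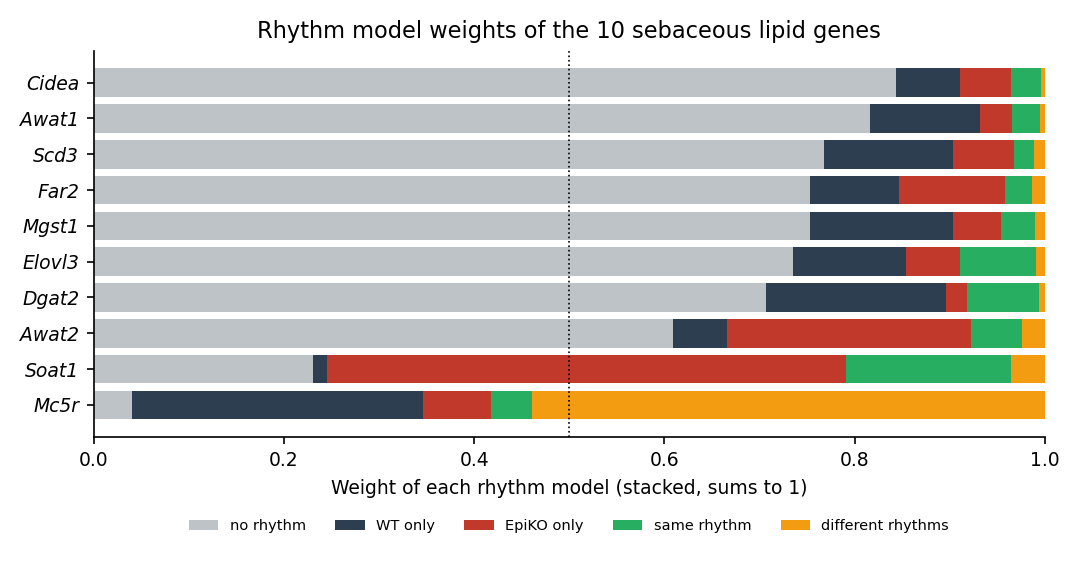
Weight of each of the 5 rhythm models for the 10 genes, stacked to 1 along the horizontal axis, with a dotted line at 0.5. The grey share for no rhythm passes the line in 8 genes, the red share for EpiKO only is the largest in Soat1 (0.546) and the orange share for different rhythms is the largest in Mc5r (0.539).

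Mc5r, the melanocortin receptor of the gland (ENSMUSG00000007480; chromosome 18, 68337596 to 68342446, plus strand, mm10), was the one gene of the 10 with a rhythm in both genotypes, and the curves were set apart in time. In WT the fitted level was 5.49 at ZT0, 4.83 at ZT4, 3.78 at ZT8, 3.39 at ZT12, 4.04 at ZT16 and 5.09 at ZT20 (log2, computed from the authors' deposited table). In EpiKO it was 6.27, 5.82, 6.17, 6.98, 7.43 and 7.08 at the same times (log2, computed from the authors' deposited table). The WT curve was high around lights on and low around lights off, while the EpiKO curve was lowest early in the day and highest in the middle of the night. The lowest fitted EpiKO value lay above the highest fitted WT value, so the 2 fitted curves did not overlap at any time. That gap includes the difference in fitted means, which cannot be told apart from how the 2 library sets were made or counted.

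From trough to peak, the Mc5r rhythm in the authors' deposited table measured 4.35-fold in WT, peaking at ZT23.5, and 3.05-fold in EpiKO, peaking at ZT16.3. The EpiKO peak was thus earlier by 7.2 h. Among the 470 genes with different rhythms, 96 peaked earlier in EpiKO by 3 to 12 h, as Mc5r did, 327 peaked later by 3 to 12 h and 47 lay within 3 h. Mc5r ranked 9 by WT amplitude and 10 by EpiKO amplitude in this class, whose medians were 1.64-fold and 1.47-fold. Its model weight of 0.539 was low for the class, at rank 451 of 470 beside a median of 0.915, and the next model, a rhythm in WT only, had 0.305 in the authors' deposited table. The weight for a rhythm of any kind was 0.888 in WT and 0.654 in EpiKO, so the EpiKO rhythm is the less certain. Because the curves differ in shape, the difference between genotypes depended on the hour: it was 0.79 at ZT0 and 0.99 at ZT4, 3.59 at ZT12 and 1.99 at ZT20 (log2, EpiKO minus WT, computed from the authors' deposited table).

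Of the 316 genes in the same class at or above the median level and with a gene name that is not a predicted one, the nearest in curve shape to Mc5r were Serpina3b and Aknad1, at distances of 0.66 and 0.79 between cosine coefficients (log2). Serpina3b had a 3.72-fold WT rhythm peaking at ZT0.341 and a 1.81-fold EpiKO rhythm peaking at ZT13.1 in the authors' deposited table. Aknad1 cycled 2.71-fold in WT (ZT21.7) and 1.76-fold in EpiKO (ZT19.1) in the authors' deposited table. For the partners of the receptor, Pomc, which encodes the precursor of its peptide ligands, had a mean of -2.02 in both genotypes, and Mrap2, an accessory protein of melanocortin receptors, 1.19 in EpiKO and 4.2 in WT (log2, the authors' deposited table).

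Soat1, which makes the cholesterol esters of sebum (ENSMUSG00000026600; chromosome 1, 156424525 to 156474331, minus strand, mm10), was assigned a rhythm in EpiKO and none in WT. Its fitted EpiKO level was 8.46 at ZT0, 8.14 at ZT4, 8.36 at ZT8, 8.90 at ZT12, 9.22 at ZT16 and 9.0 at ZT20, against a flat 9.37 in WT (log2, computed from the authors' deposited table). The EpiKO curve came closest to the WT level in the middle of the night and lay furthest from it in the morning. At ZT16 the difference was -0.15 and at ZT4 it was -1.23 (log2, EpiKO minus WT, computed from the authors' deposited table). From trough to peak the EpiKO rhythm was 2.11-fold with a peak at ZT16.4 in the authors' deposited table, and the EpiKO peak of Mc5r was at ZT16.3. Peak times of ZT16 to ZT20 were found in 222 of the 764 genes rhythmic in EpiKO only.

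Soat1 was assigned at a low weight for its class. This weight was 0.546, beside 0.231 for no rhythm and 0.173 for the same rhythm in both, in the authors' deposited table. In its class of 764 genes it ranked 666 by weight (median 0.707) and 202 by amplitude (median 1.42-fold). The nearest of 417 genes in curve shape were Ly6c1 (distance 0.18, 1.73-fold, peak at ZT15.6) and Trmt61a (distance 0.23, 1.53-fold, peak at ZT16.6) in the authors' deposited table. Soat1 shared 0.709% of its windows with other genes and Mc5r none.

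**Figure D3:**
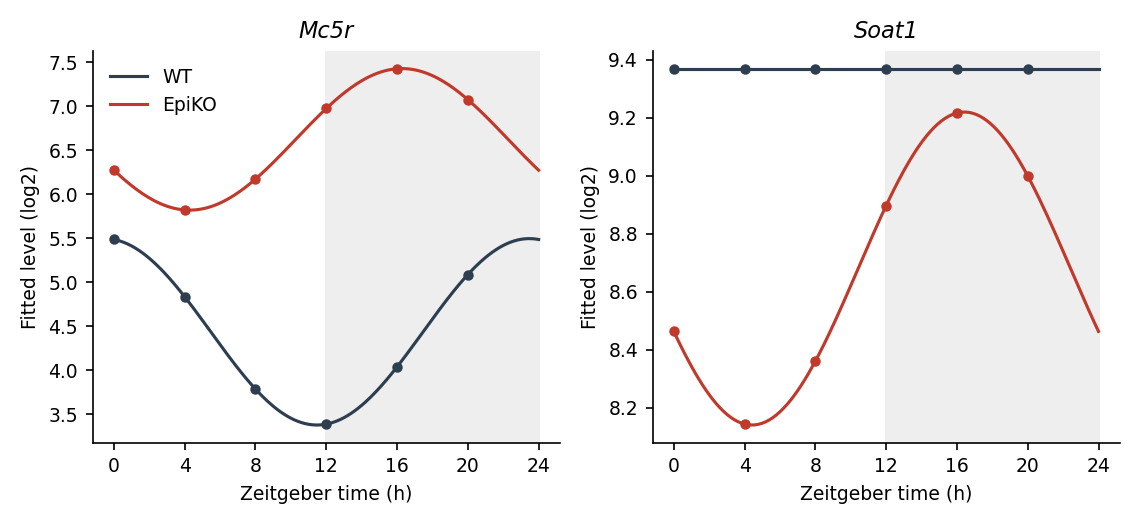
Fitted cosine curves of Mc5r and Soat1 over zeitgeber time in hours, with the night shaded, in WT (dark) and EpiKO (red). Points mark the 6 sampled times on the fitted curve and are not measured values. Mc5r peaks at ZT23.5 in WT and ZT16.3 in EpiKO, and Soat1 is flat at 9.37 in WT and reaches 9.22 in EpiKO.

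The next comparison is of the mean level over the day. Most of the 10 genes had a higher mean in EpiKO, the desaturase Scd3 and the cholesterol acyltransferase Soat1 had a lower one, and Dgat2 was not called different. A difference was called where the model with unequal means had a weight of at least 0.5. By this rule on the authors' deposited table, 7 of the 10 were higher in EpiKO (32.7% of all genes), 2 lower (37.4%) and 1 not called (29.9%). Among the 12107 genes at or above the level of the lowest of the 10, 41.7% were higher, 37.1% lower and 21.1% not called. The median difference was 0.70 over the 10 genes and 0 over all genes, and the median size regardless of sign was 0.83 beside 0.29 (log2, computed from the authors' deposited table). Differences of over 1 were seen in 3 of the 10, Scd3, Mc5r and Far2, beside 21.4% of all genes and 12.6% of the 12107. In bulk epidermis, fewer cells of a type and less RNA per cell cannot be told apart.

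Among the enzymes that shape the acyl chains, Scd3 (ENSMUSG00000025202; chromosome 19, 44203269 to 44244016, plus strand, mm10) was at 7.14 in EpiKO and 9.12 in WT, which is 3.95-fold lower in EpiKO at weight 1.00 in the authors' deposited table. Its relatives in the cluster were not all called lower. Scd1 and Scd2 were given the model with equal means (13.36 and 10.43), at weights of 0.680 and 0.841, so their equality is not measured. Scd4 was at 1.36 in EpiKO and 8.15 in WT (log2, the authors' deposited table). The elongase Elovl3 (ENSMUSG00000038754; chromosome 19, 46131897 to 46135694, plus strand) went the other way, at 7.63 in EpiKO and 6.64 in WT, 2.0-fold higher at weight 0.981 in the authors' deposited table. Far2, which makes the alcohols for waxes (ENSMUSG00000030303; chromosome 6, 148047259 to 148182758, plus strand), was at 9.36 in EpiKO and 8.12 in WT, 2.36-fold higher at weight 1.00 in the authors' deposited table. Of its exon bases, 12.6% are overlapped on the opposite strand by Ergic2 and Far2os2. Of its windows, 10.7% are shared on either strand, the most with these same genes, so the 2 figures are not separate limits. The Far2 level is less certain if the counting ignored strand. Far1, the other fatty alcohol reductase, was at 10.23 in EpiKO and 9.57 in WT (log2, the authors' deposited table).

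Among the acyltransferases, both wax enzymes were higher in EpiKO. Awat1 (ENSMUSG00000015665; chromosome X, 100572251 to 100578205, plus strand) was at 4.83 in EpiKO and 3.91 in WT, 1.88-fold higher at weight 0.936 in the authors' deposited table. Awat2 (ENSMUSG00000031220; chromosome X, 100402221 to 100442717, minus strand), 130 kb away, was at 4.86 and 4.40, 1.38-fold higher at weight 0.943 in the authors' deposited table. Between them lies Dgat2l6, a gene of the same acyltransferase family, at 2.02 in EpiKO and 0.72 in WT, also called higher in the authors' deposited table. Dgat2 (ENSMUSG00000030747; chromosome 7, 99153658 to 99182719, minus strand) had the equal-means model, weight 0.817, and a mean of 11.05 in both in the authors' deposited table. Its equal means follow from that model and are not 2 separate measurements. The cholesterol enzyme Soat1 was at 8.68 in EpiKO and 9.37 in WT, 1.61-fold lower with a weight of 0.994, and Soat2, its relative of liver and intestine, was at 0.99 and 6.86 (log2, the authors' deposited table).

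The droplet protein gene Cidea (ENSMUSG00000024526; chromosome 18, 67343604 to 67367785, plus strand) was at 6.82 in EpiKO and 6.15 in WT, 1.59-fold higher, but at weight 0.602 in the authors' deposited table, the lowest of the called differences. Mgst1 (ENSMUSG00000008540; chromosome 6, 138140316 to 138156755, plus strand) was at 9.22 and 8.48, 1.67-fold higher at weight 0.985 in the authors' deposited table. Mgst2 and Mgst3, of the same family, differed by 0.96 and 0.64 in the same direction (log2, EpiKO minus WT, the authors' deposited table). The receptor gene Mc5r had the largest difference of the 10, at 6.63 in EpiKO and 4.44 in WT, 4.56-fold higher at weight 1.00 in the authors' deposited table. Summed on the linear scale, the level of the 10 genes came to 12.10 in EpiKO and 12.04 in WT (log2), a total to which Dgat2 contributes most.

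These mean differences cannot be told apart from differences in how the 2 library sets were made or counted. The same holds for the differences of Mc5r and Soat1 at each time, which include the mean difference. Some genes that every cell uses stood far apart: Tmsb4x was at 13.45 in EpiKO and -1.41 in WT, Uqcr11 at 9.56 and -2.25, and Gapdh at 6.96 and 12.70, while Actb was at 14.31 and 14.85 (log2, the authors' deposited table). These 4 were picked after their values were seen. Across the whole of the authors' deposited table, 225 genes were above 7 in WT and under 2 in EpiKO, and 15 the reverse. Scd4, Soat2 and Mc1r are not in the 10 but are relatives of Scd3, Soat1 and Mc5r, and lay at or near those limits. Among genes with a level over 4, a mean lower by over 2 in EpiKO was found in 8.07% of 8215 genes with no exon overlap and in 87.9% of 116 genes with over 60% of their exon bases overlapped on the same strand. The share was 54.8% of 73 genes with over 60% of their exon bases overlapped on the opposite strand. None of the 10 has a same-strand overlap, and the opposite-strand overlap of Far2 is 12.6%. A share of 5% or more of windows held in common with other genes, on either strand, was found in Scd3 and Far2. Without these, 6 of the other 8 were higher and 1, Soat1, lower.

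Markers of several other cell types also differed between the sets. Those of basal keratinocytes had differences of -0.29 to 0.39 with a median of 0 (log2, EpiKO minus WT, the authors' deposited table). Of these 7 markers 1 was called higher and 3 lower. Of 7 Langerhans cell and macrophage markers 5 were higher in EpiKO and 1 lower, with a summed level of 12.22 in EpiKO against 11.76 in WT (log2, the authors' deposited table). Cd207, the Langerhans cell lectin, was at 7.28 in EpiKO and 5.80 among WT values of the authors' deposited table (log2). Fibroblast markers were higher in 4 of 7 and lower in none, with a summed level of 9.82 in EpiKO and 9.50 in WT, and hair follicle markers lower in 7 of 10 and higher in none, with 13.05 and 14.01 (log2, the authors' deposited table). Of the 10 adipocyte markers 3 were lower (Lpl, Adrb3 and Pck1) and none higher, with summed levels of 8.63 and 10.49 (log2, the authors' deposited table). Suprabasal keratinocyte markers were higher in 2 of 6 and lower in 3, and melanocyte markers lower in 2 of 7 and higher in none. T cell markers were higher in 2 of 4 and endothelial markers in 3 of 4, with none lower. Muscle markers were lower in 4 of 6 and higher in none, with summed levels of 6.34 in EpiKO and 10.35 in WT (log2, the authors' deposited table). The hair follicle sums rest mostly on Gata3 (12.77 in EpiKO, 13.57 in WT) and the adipocyte sums on Lpl (8.03 and 10.27). Acta1 (2.21 in EpiKO, 9.90 in WT) makes up most of the WT muscle sum (log2, the authors' deposited table). The part of these cell types in the means of the 10 genes was not tested.

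**Figure D4:**
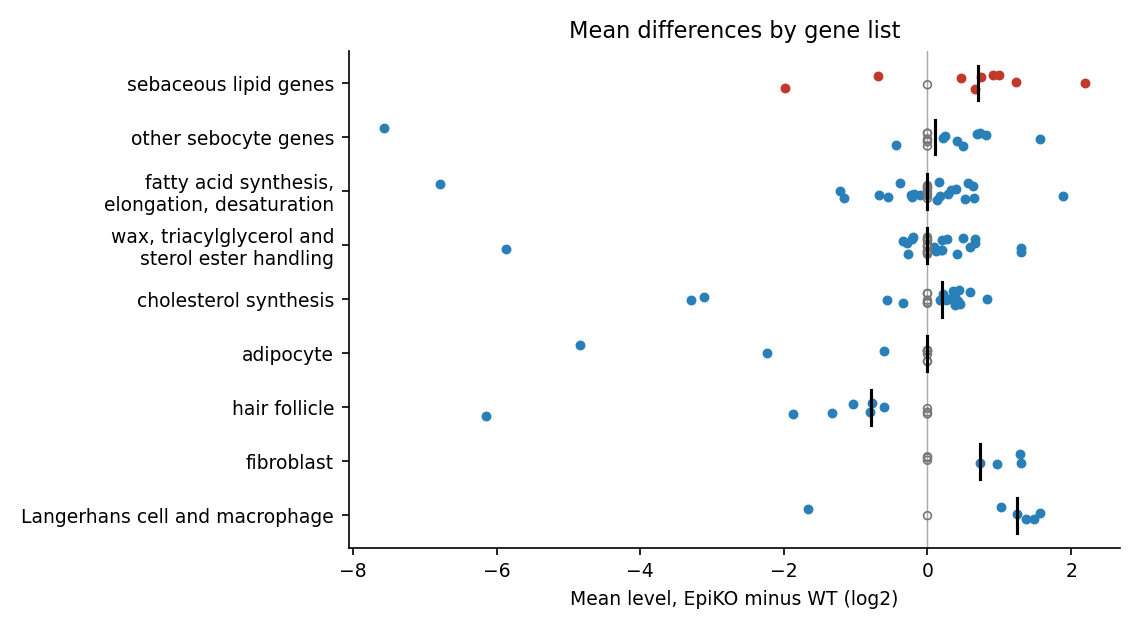
Difference of mean levels, EpiKO minus WT in log2, for each gene of 9 lists, with the list median as a black bar. Open grey points at 0 are genes whose means were not called different. The sebaceous lipid genes (red) have a median of 0.70. The 4 other lipid lists drawn have medians of 0 to 0.20. Marker medians are 0.74 for fibroblasts, 1.25 for Langerhans cells and macrophages, -0.79 for the hair follicle and 0 for adipocytes.

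The wider lipid lists show what the 10 genes sit among. Of 16 other sebocyte genes, 9 had no rhythm, 1 was rhythmic in WT only, 2 had the same rhythm and 4 were unassigned. Their means were higher in EpiKO in 8 and lower in 2, with a median difference of 0.11 (log2, computed from the authors' deposited table). Aadac and Cyp2b19 had the same rhythm in both genotypes, 1.48-fold with a peak at ZT22.7 and 1.54-fold with a peak at ZT6.79 in the authors' deposited table.

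Genes of fatty acid synthesis, upstream in the pathway, were spread over most of the classes. Of 29 measured genes for fatty acid synthesis, elongation and desaturation, 10 had no rhythm, 3 a rhythm in WT only, 6 the same rhythm, 1 different rhythms and 9 were unassigned, and 11 were higher and 10 lower in mean. Scd2, the neighbour of Scd3, had the same 2.01-fold rhythm in both genotypes with a peak at ZT22.0, and Fads2, a desaturase of polyunsaturated chains, a 2.47-fold one with a peak at ZT21.8, in the authors' deposited table. Of 31 genes for wax, triacylglycerol and sterol ester handling, 17 had no rhythm, 2 a rhythm in WT only, 1 in EpiKO only, 7 the same rhythm and 1 different rhythms, and 13 were higher and 6 lower. The 1 with a rhythm in EpiKO only was Fitm2, which helps lipid droplets bud from the endoplasmic reticulum, at 1.55-fold with a peak at ZT13.9 in the authors' deposited table.

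Of 22 genes of the cholesterol synthesis list, 11 had no rhythm, 2 a rhythm in WT only, 1 in EpiKO only and 6 the same rhythm, and 12 were higher and 4 lower. Of 13 nuclear receptor and melanocortin genes other than Mc5r, 6 had no rhythm and 3 were rhythmic in WT only, and 3 were higher and 7 lower in mean, with a median difference of -0.10 (log2, computed from the authors' deposited table). Of 5 microsomal glutathione transferase relatives of Mgst1, 3 had no rhythm, and 3 were higher and none lower, with a median difference of 0.64 (log2, computed from the authors' deposited table). Over all 110 genes of these lists, 53 had no rhythm, 11 a rhythm in WT only, 3 in EpiKO only, 24 the same rhythm and 3 different rhythms, against 8, 0, 1, 0 and 1 of the 10 sebaceous genes. Among the 110, 47 were higher in mean and 28 lower. These counts are descriptions, and no difference between the 10 genes and the lists was tested.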

How the data were processed

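Polyadenylated RNA of EpiKO epidermis was sequenced as stranded single reads of 51 bases, per the labels' protocols. Tools in the submitters' processing notes are featureCounts 1.6.0, HISAT2 2.2.1, Trimmomatic 0.36, edgeR and SAMtools 1.3.1, with the build mm10. No strand setting and no scaling between library sets is stated there. The series design text says that WT and EpiKO rhythms were set against each other by dryR, which fits a cosine per genotype and weighs models by the Bayesian information criterion. In the table the authors deposited, each model has a weight, a score from 0 to 1, and mean levels are log2 values as deposited. The columns of the side other than WT are labelled FC_LD, which does not match the genotype name, and were read as EpiKO because the comparison has 2 sides, so every EpiKO value rests on this reading. Amplitudes in the deposited table are heights from trough to peak in log2, checked from the cosine coefficients of 5062 EpiKO and 5914 WT rhythms (tolerance 1e-06), and were turned into folds.

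Classes needed a weight of at least 0.5. The members, gene lists, alternatives and naming rule were chosen with earlier results of these data known. The rule took all members, then per list up to 4 rhythmic genes by amplitude and 3 by mean difference, up to 3 per marker list by mean level, and the 2 genes nearest in curve shape. Arntl is named as the targeted gene. Others named (Scd1, Krt79, Pparg, Plin5, Far1, Pomc, Adipoq, Plin1, Lep, Pck1, Cd207, Tmsb4x, Uqcr11, Gapdh and Actb) were chosen after their values were seen. Some genes that the rule takes are not reported here. Of 17721 identifiers 17720 matched a symbol. Positions, exon lengths and overlaps come from GENCODE M21. Shared reads were gauged by the 51-base windows of a gene's transcripts found in another gene on either strand. Counts and values per library were not analysed here, so no interval is given, and the weights are not p-values. Alternatives were other weight limits, a minimum amplitude of 0.25 and a minimum mean difference of 0.5 (log2), summed weights and centring on the median. Python 3.11.15, NumPy 2.4.6, pandas 2.3.3 and Matplotlib 3.10.9 were used.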

Additional observations from a re-analysis of the deposited data

How the results depend on the processing

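Of 28 alternatives, 21 left a count within 1.5 times its reported value and 7 moved it. With a minimum weight of 0.8, 2 of the 10 genes (Cidea and Awat1) were assigned no rhythm, 0 a rhythm in EpiKO only and 0 different rhythms, and 8 were unassigned. The assignments of Soat1 and Mc5r thus depend on the lower limit. Summed model weights came to 1.25 genes rhythmic in WT only, 0.572 with the same rhythm and 0.657 with different rhythms, beside 6.26 with no rhythm and 1.27 rhythmic in EpiKO only. Without Scd3 and Far2, which share 5% or more of their windows with other genes (chosen after seeing the data), 1 gene was lower in mean and 6 higher. Leaving them out only takes 1 lower and 1 higher gene from the counts and could change no call. Under the other alternatives for the mean 6 or 7 genes were higher and 2 lower. Centring on the median only repeats the main count, because the median difference over all genes was 0. Having no weight limit or a minimum amplitude left every class count as reported, but neither could have moved one. All 10 genes already had a weight of at least 0.5, and the rhythms of Soat1 and Mc5r exceed the minimum amplitude. These outcomes are counted among the 21 and are no sign of robustness. No paired analysis was possible because the deposited table holds no value per library. For the same reason leaving out single mice was not possible, and depth could not be weighed.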
